A study of Mus musculus with 8 samples.

Results

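Neat1, Malat1, Meg3, Pvt1, Rmrp and Airn are long-studied noncoding RNAs that act in the nucleus or are transcribed from imprinted regions. They were found by matching the RefSeq transcript of each array probe to a gene symbol. Each of the 6 was represented by 1 probe with a single spot per array, out of 37246 measured probes. RefSeq lists 2 transcripts for Neat1, 3 for Meg3, 3 for Pvt1 and 4 for Airn. Which of these each probe detects was not checked. The cells were MEFs, the fibroblasts that grow out of mouse embryo tissue in culture, taken from littermates that were Atm+/+ or Atm-/-. Atm encodes the kinase that signals DNA double-strand breaks to p53 and the cell cycle checkpoints. Each genotype was untreated (0 h) or harvested 4, 8 and 24 h after neocarzinostatin (NCS), a radiomimetic drug that breaks both DNA strands, with 1 array per genotype and time point and so 4 arrays per genotype. The series asks which long noncoding RNAs change after DNA damage and whether Atm is needed for it. The labels name neither the part of Atm that was removed nor the number of embryos or lines, so p-values measure only the spread between these arrays, which may be technical.

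Neat1 is the RNA scaffold of paraspeckles, nuclear bodies that hold RNA-binding proteins such as Nono and Sfpq, and it is a known target of p53. Malat1 is transcribed from the gene next to it and gathers in nuclear speckles, where splicing factors are stored. Rmrp is the RNA subunit of RNase MRP, an enzyme that cuts precursor ribosomal RNA and shares most of its protein subunits with RNase P. Meg3 and Airn are imprinted, which means that mainly one parental copy is transcribed. Meg3 is made from the maternal copy of a region whose paternal copy makes the growth regulator Dlk1. Airn is made from the paternal copy, antisense to Igf2r, and silences Igf2r on that copy. Pvt1 lies beside the oncogene Myc and is a known p53 target.

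The promoters of Meg3 and Airn are shown because these imprinted RNAs had the widest spread of levels over the 8 arrays among the 6. RefSeq sequence on GRCm38.p6 was available for 3 of the 6 genes (Meg3, Airn and Malat1), in windows of 300 bases that run from 250 bases before to 50 after the transcript start. The Meg3 window, from the first of 2 listed starts, lies on the plus strand at chr12:109540746-109541045. The Airn window lies on the plus strand at chr17:12741061-12741360. Capitals mark matches to 3 motifs searched on both strands, the cyclic AMP response element TGACGTCA, the TATA motif TATAAA and the CCAAT motif.
Meg3: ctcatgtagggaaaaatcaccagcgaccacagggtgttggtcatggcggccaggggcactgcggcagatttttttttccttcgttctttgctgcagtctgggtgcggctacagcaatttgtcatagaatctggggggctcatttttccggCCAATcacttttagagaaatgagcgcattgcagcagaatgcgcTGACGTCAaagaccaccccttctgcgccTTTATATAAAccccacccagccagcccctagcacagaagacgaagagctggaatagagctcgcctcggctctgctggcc
Airn: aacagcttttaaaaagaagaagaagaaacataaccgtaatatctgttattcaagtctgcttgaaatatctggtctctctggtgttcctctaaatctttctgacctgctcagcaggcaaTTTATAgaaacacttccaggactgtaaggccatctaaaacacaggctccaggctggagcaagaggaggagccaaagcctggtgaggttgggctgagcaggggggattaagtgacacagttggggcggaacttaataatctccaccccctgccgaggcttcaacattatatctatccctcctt
The Meg3 window held CCAAT 100 bases before the start and TGACGTCA 57 bases before it. It also held TATAAA 25 bases before the start on the plus strand, overlapping a match to the same motif on the minus strand that begins 29 bases before the start. The Airn window held TATAAA on the minus strand only, 132 bases before the start, and the Malat1 window held none of the 3 motifs. Of 32851 RefSeq promoters of the same length, 1.79% held TGACGTCA, 13.6% held TATAAA and 37.4% held CCAAT. These matches describe letters and not bound sites.

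Levels below are log2 processed intensities from which the 75th percentile of each array was subtracted. All 6 probes were well above background on all 8 arrays, and no spot of theirs was saturated or marked as an outlier. The scanner software put the error of their spots between 10.0% and 13.0% of the intensity, which makes a difference between 2 spots uncertain by 0.20 to 0.25 on the log2 scale. That error describes the spot and not the culture. The 4 Atm+/+ arrays lay on one slide and the 4 Atm-/- arrays on another. On each slide positions 1 to 4 held the time points in order, and no untreated array was made at 4, 8 or 24 h. A genotype difference and a slide difference cannot be told apart, nor can a response to NCS and time in culture or array position. Atm itself, the check on the labels, was lower in Atm-/- (log2 difference -1.24 ± 0.18, limma adjusted p = 0.0137). Its probe stayed well above background on all 8 arrays, and since the deleted part is not named, a probe outside it would check nothing.

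Cell markers and sex-linked transcripts also differed between the genotypes, and their part in the results below was not tested. All 9 fibroblast markers were well above background on 8 arrays. The log2 of their summed levels was 9.61 to 9.74 in Atm+/+ and 9.29 to 9.50 in Atm-/-. In these sums levels are added before the log2 is taken, so the brightest genes weigh most. Of them Col1a2, Pdgfra and Thy1 were lower in Atm-/-. The summed level of macrophage and blood markers was 4.35 to 5.18 in Atm+/+ and 3.21 to 4.03 in Atm-/-, with all 5 tested lower. Epithelial markers summed to 0.77 to 1.60 against 1.52 to 2.56, with 5 of 6 higher. Endothelial markers summed to -0.30 to 0.67 against 1.06 to 2.36, with 3 of 4 higher. Kdr made up most of that sum, at 2.30 beside 2.36 on the Atm-/- array at 0 h. Muscle markers summed to 4.48 to 4.71 against 4.72 to 4.80, with 1 of 5 higher and 1 lower. Acta1 made up most of that sum, at 4.60 beside 4.71 on the Atm+/+ array at 0 h. The sums of the Atm+/+ 24 h array leave out Lum, Adgre1 and Des, whose spots were marked there. No marker on the array was at or below background on all 8 arrays. The Y-linked Ddx3y, Eif2s3y, Kdm5d and Uty were above background on the 4 Atm+/+ arrays and on 0 Atm-/- arrays. Xist was higher in Atm-/- (limma adjusted p = 0.0129). It was above background on all 4 Atm-/- arrays, at -3.21 to -2.90, and on 1 of the 4 Atm+/+ arrays, at 8 h (-4.92), so no fold is given. Genotype and the sex of the embryo cannot be told apart. In bulk RNA, fewer cells of a type and less RNA per cell cannot be told apart.

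Of the 6 RNAs, Meg3 and Rmrp were higher in Atm-/- across the time course, and the other 4 did not pass the test. The call rate over all probes was high in this comparison. limma called 14.7% of 23291 probes at an adjusted p under 0.05, with 7.28% higher in Atm-/-, and 2 of the 6 RNAs were called, both higher. The median log2 difference of the 6 was 0.28, beside 0.01 over all probes tested. The levels of all 6 over genotype and time are plotted first.

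**Figure D1:**
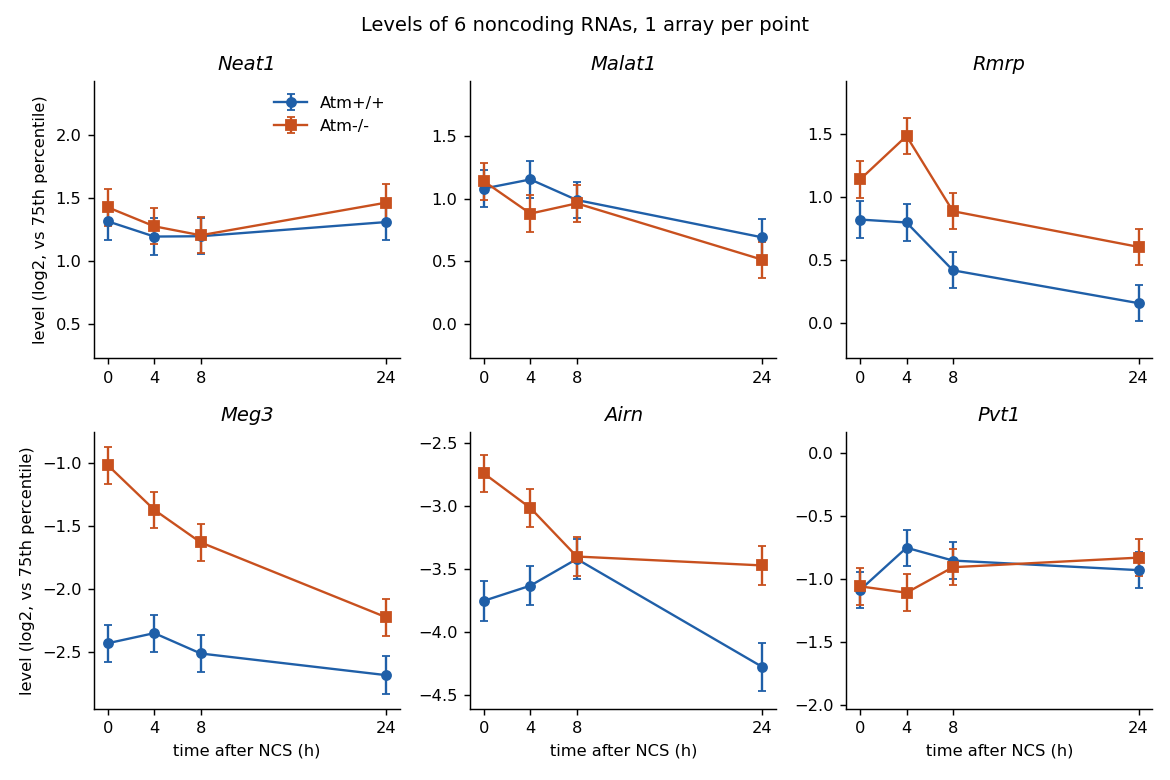
Log2 level of each RNA relative to the 75th percentile of its array, against hours after NCS, with 1 array per point for Atm+/+ (circles) and Atm-/- (squares). Bars are the scanner software's error of the single spot, and each panel spans the same range of log2 units. The Meg3 lines do not cross or overlap (-2.69 to -2.35 in Atm+/+, -2.23 to -1.02 in Atm-/-), while the 8 values of Neat1 lie within 0.27.

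Meg3, from chromosome 12, read -2.43, -2.35, -2.52 and -2.69 in Atm+/+ at 0, 4, 8 and 24 h (processed intensities of 550, 624, 535 and 476). In Atm-/- it read -1.02, -1.38, -1.63 and -2.23 (intensities of 1519, 1297, 1201 and 753). Every Atm-/- array lay above every Atm+/+ array, a separation that 18% of 21558 probes showed in one direction or the other. The 4 Atm-/- arrays were ordered by time from high to low, with steps of 0.35, 0.26 and 0.59, and the Atm+/+ arrays spanned 0.33. Each step is between single arrays, and the spread between cultures at one time was not measured.

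The genotype difference of Meg3 was 0.93 ± 0.16 (SE, 95% interval 0.52 to 1.35, limma adjusted p = 0.0238, 4 arrays against 4), a fold of 1.91 with an interval of 1.43 to 2.54. It was higher in Atm-/- in 4 of 4 pairs of the same time point. The gap between single arrays was 1.41 at 0 h, 0.98 at 4 h, 0.88 at 8 h and 0.46 at 24 h. Meg3 thus differed by 2.66-fold before treatment and by 1.37-fold at 24 h. The fit has 1 genotype term for all times, so this change of the gap counts as spread in its SE. At 0 h, 3.93% of 21405 probes differed by at least 2-fold between these single arrays, Meg3 and Airn among them. The difference stayed between 0.73 and 1.09 over 22 alternative settings, but its adjusted p ran from 0.00982 to 0.0989. The call was lost without the arrays of 0 h (0.77, adjusted p = 0.0674), 4 h (0.92, adjusted p = 0.0989) or 8 h (0.95, adjusted p = 0.09), with marked spots removed before scaling (0.86, adjusted p = 0.0595) and with the authors' deposited log2 values (0.90, adjusted p = 0.0652). It held under 11 of the 22, among which leaving out either array of a time point or both is the same fit, counted separately.

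Rmrp, from chromosome 4, read 0.82, 0.80, 0.42 and 0.16 in Atm+/+ at 0, 4, 8 and 24 h. In Atm-/- it read 1.14, 1.48, 0.89 and 0.60. It was higher in Atm-/- in 4 of 4 pairs, with gaps of 0.32, 0.69, 0.47 and 0.45, but the groups overlapped, since the Atm-/- array at 24 h lay below the Atm+/+ arrays at 0 and 4 h. The genotype difference was 0.48 ± 0.09 (95% interval 0.26 to 0.70, limma adjusted p = 0.0257), a fold of 1.39. Over 22 alternative settings it ranged from 0.41 to 0.53, with adjusted p from 0.00905 to 0.216. The call was lost without the arrays of 0 h (0.53, adjusted p = 0.0749), 4 h (0.41, adjusted p = 0.115) or 8 h (0.48, adjusted p = 0.0927), and with marked spots removed before scaling (0.41, adjusted p = 0.109). It was also lost with no filter on dim probes (0.48, adjusted p = 0.0593), with genotype as the only term (0.48, adjusted p = 0.216) and with the authors' deposited log2 values (0.45, adjusted p = 0.0989). It held under 9 of the 22, with the same repeated fits among them.

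Airn, from chromosome 17, was the dimmest of the 6 spots, with intensities of 158 to 462. It read -3.75, -3.63, -3.42 and -4.28 in Atm+/+ at 0, 4, 8 and 24 h, and -2.74, -3.01, -3.40 and -3.47 in Atm-/-. It was higher in Atm-/- in 4 of 4 pairs, by 1.01 at 0 h (2.01-fold), 0.62 at 4 h, 0.02 at 8 h and 0.81 at 24 h, and the groups overlapped, since the Atm-/- array at 24 h lay below the Atm+/+ array at 8 h. The genotype difference of 0.61 ± 0.17 (95% interval 0.17 to 1.06) did not pass the test (limma adjusted p = 0.0802). Without the 8 h arrays it was 0.81 and passed (adjusted p = 0.0433).

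Neat1, from chromosome 19, read 1.31, 1.19, 1.19 and 1.31 in Atm+/+ and 1.42, 1.27, 1.20 and 1.46 in Atm-/- at 0, 4, 8 and 24 h. Its 8 arrays lay within 0.27, and it too was higher in Atm-/- in 4 of 4 pairs, by 0.01 to 0.15. The share of all probes higher in 4 of 4 pairs was not counted. The genotype difference was 0.09 ± 0.07 (95% interval -0.08 to 0.26, limma adjusted p = 0.414). Its upper bound corresponds to a fold of 1.20.

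Malat1, also from chromosome 19, read 1.08, 1.15, 0.99 and 0.69 in Atm+/+ and 1.14, 0.88, 0.96 and 0.51 in Atm-/-. The 24 h array was the lowest of its genotype in both. The genotype difference was -0.10 ± 0.08 (95% interval -0.32 to 0.11, limma adjusted p = 0.441), and Malat1 was higher in Atm-/- in 1 of 4 pairs.

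Pvt1, from chromosome 15, read -1.09, -0.75, -0.85 and -0.93 in Atm+/+ and -1.06, -1.11, -0.91 and -0.83 in Atm-/-. Its largest gap between genotypes was 0.36 at 4 h, where Atm-/- was lower. The genotype difference was -0.07 ± 0.10 (95% interval -0.32 to 0.18, limma adjusted p = 0.661), with 2 of 4 pairs higher in Atm-/-. For Neat1, Malat1 and Pvt1 these intervals leave room for changes of up to about 1.20-fold to 1.25-fold in one direction or the other.

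**Figure D2:**
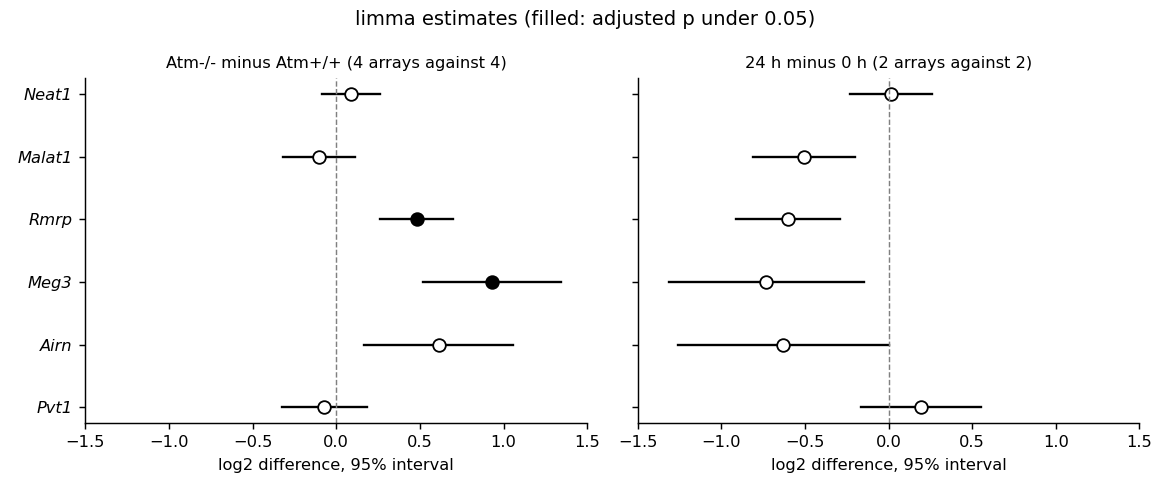
Log2 differences with 95% intervals for each RNA, Atm-/- minus Atm+/+ on the left (4 arrays against 4) and 24 h minus 0 h on the right (2 arrays against 2), from limma. Filled points, Meg3 (0.93) and Rmrp (0.48) for genotype, passed an adjusted p of 0.05, and no point did at 24 h.

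None of the 6 RNAs passed the test for a response to NCS over both genotypes. Over the 3 treated times against 0 h (6 arrays against 2), limma called 0.207% of 23151 probes and 0 of the 6 RNAs. The log2 difference was -0.40 ± 0.19 for Meg3, -0.29 ± 0.20 for Airn, -0.26 ± 0.10 for Rmrp, -0.24 ± 0.10 for Malat1, -0.10 ± 0.08 for Neat1 and 0.18 ± 0.11 for Pvt1. Rmrp had an unadjusted p under 0.05 (its limma adjusted p = 0.36), 1 of the 6 beside 13.8% of all probes. With time as a term, leaving out 1 array of 0 h leaves the response of the other genotype. Without the Atm-/- array at 0 h the difference was -0.09 for Meg3, -0.02 for Airn, -0.36 for Rmrp and -0.14 for Malat1. Without the Atm+/+ array it was -0.72, -0.55, -0.15 and -0.35. Pvt1 read 0.11 without the Atm+/+ array at 0 h or at 4 h. The median of the 6 was -0.25, beside -0.04 over all probes. The comparisons at 4, 8 and 24 h share the 2 arrays of 0 h.

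At 4 h limma called 0.107% of 23291 probes and 0 of the 6 RNAs, and 0 of the 6 had an unadjusted p under 0.05, beside 4.04% of all probes. The differences lay between -0.14 for Meg3 and 0.16 for Rmrp. At 8 h limma called 0.258% of 23284 probes and 0 of the 6 RNAs. Rmrp differed by -0.33 ± 0.12 there (limma adjusted p = 0.408), the 1 of the 6 with an unadjusted p under 0.05, beside 11.7% of all probes.

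At 24 h Rmrp, Malat1, Meg3 and Airn read lower than at 0 h in both genotypes, none past the adjusted test. The share of all probes that read lower in both genotypes was not counted. limma called 2.55% of 23162 probes, 1.48% as lower, and 0 of the 6 RNAs, while 3 of the 6 and 26.2% of all probes had an unadjusted p under 0.05. Rmrp differed by -0.60 ± 0.12 (95% interval -0.91 to -0.29, limma adjusted p = 0.07), by -0.66 in Atm+/+ and -0.54 in Atm-/-. Malat1 differed by -0.51 ± 0.12 (95% interval -0.81 to -0.20, limma adjusted p = 0.087), by -0.39 and -0.62.

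Cell markers also differed at 24 h, and their part in these values was not tested. Of 5 macrophage and blood markers 2 rose, Lyz2 (from 3.22 to 4.58 in Atm+/+ and from 2.03 to 3.26 in Atm-/-, limma adjusted p = 0.0439) and Adgre1 (1.58, adjusted p = 0.0485, fitted without the Atm+/+ 24 h array, where its spot was marked). The summed level of that list went from 4.35 to 5.18 in Atm+/+ and from 3.21 to 4.03 in Atm-/-, and Adgre1 is not in the sum of the Atm+/+ 24 h array. Of 6 epithelial markers Krt8 fell (-0.94, adjusted p = 0.0485), with sums of 1.60 to 0.77 and 2.31 to 1.52. Of 4 endothelial markers Kdr fell (-1.27, adjusted p = 0.0439) and Pecam1 rose (0.97, adjusted p = 0.0456). The sums, made up mostly of Kdr, went from 0.67 to -0.30 and from 2.36 to 1.06. Of 5 muscle markers Myod1 fell (-0.98, adjusted p = 0.0487), with sums of 4.71 to 4.48 and 4.80 to 4.75. Of 9 fibroblast markers 0 were called, with sums of 9.65 to 9.74 and 9.50 to 9.45. The muscle marker Des and the fibroblast marker Lum are not in the sums of the Atm+/+ 24 h array, where their spots were marked.

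Meg3 differed at 24 h by -0.73 ± 0.23 (limma adjusted p = 0.134), made up of -0.25 in Atm+/+ and -1.21 in Atm-/-. The second of these puts the 24 h array at 0.43 times the 0 h array. Of 21581 probes 4.49% differed by at least 2-fold between these single arrays, Meg3 alone among the 6. Airn differed by -0.63 ± 0.25 (limma adjusted p = 0.192), by -0.53 and -0.73. Neat1 was nearly level at 0.02 ± 0.10 (95% interval -0.23 to 0.26), and Pvt1 read 0.19 ± 0.14 (95% interval -0.17 to 0.55). Both are described as targets of p53, and neither passed a test of the response at any time over both genotypes. No test at single times was run within a genotype. In Atm+/+ the treated arrays together differed from 0 h by 0.24 for Pvt1 and -0.08 for Neat1. In Atm-/- they differed by 0.11 and -0.11. The median of the 6 at 24 h was -0.55, beside -0.07 over all probes. The adjusted p of Rmrp passed the threshold when only probes above background on all arrays were tested (0.046) or with an intensity trend in the variance (0.0302), and that of Malat1 with the trend (0.0419).

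The difference of response between the genotypes, which asks whether NCS acts differently without Atm, was called for none of the 6 RNAs and for 0% of 23162 probes by limma, and 2.47% of the probes (571) had an unadjusted p under 0.05. This model, with time points as terms, leaves 2 residual degrees of freedom. The values within each genotype below come from a separate fit of 4 groups without time points. That fit counts differences between the treated times as spread. The SE of a difference of response therefore does not follow from the SEs within the genotypes. The treated arrays of Meg3 were lower than 0 h by -0.72 ± 0.33 in Atm-/- and by -0.09 ± 0.33 in Atm+/+. The difference of these was -0.64 ± 0.28 (95% interval -1.41 to 0.14, limma adjusted p = 1). Airn gave -0.55 ± 0.35 in Atm-/- and -0.02 ± 0.35 in Atm+/+, with a difference of -0.53 ± 0.37 (limma adjusted p = 1).

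For the other 4 RNAs the difference of response was smaller, between -0.22 ± 0.21 for Malat1 and 0.22 ± 0.21 for Rmrp. Within Atm+/+ alone limma called 0.00859% of 23270 probes and within Atm-/- 0.0259% of 23191, with 0 of the 6 RNAs in each. At an unadjusted p under 0.05 there were 0 of the 6 in each, beside 2.99% and 2.82% of all probes.

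Genes that lie near the 6 were measured on the same arrays. In this and the later lists each gene is represented by its probe of highest mean, while shares are over all probes. Other probes of the same gene are not described here. Dlk1, the growth regulator of the Meg3 region, has no protein-coding gene between it and Meg3. It read 4.06, 4.06, 3.82 and 3.24 in Atm+/+ at 0, 4, 8 and 24 h and 4.84, 4.77, 4.74 and 3.85 in Atm-/-. Like Meg3 it was higher in Atm-/-, in 4 of 4 pairs and by 0.76 ± 0.08 (limma adjusted p = 0.00682). It fell at 24 h by 0.90 on the log2 scale (SE 0.11, adjusted p = 0.0456). Dlk1 was the 1 gene of its region that could be tested among the 4 on the array, since Rtl1 was above background on 1 array and Dio3 and Dio3os on 0.

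**Figure D3:**
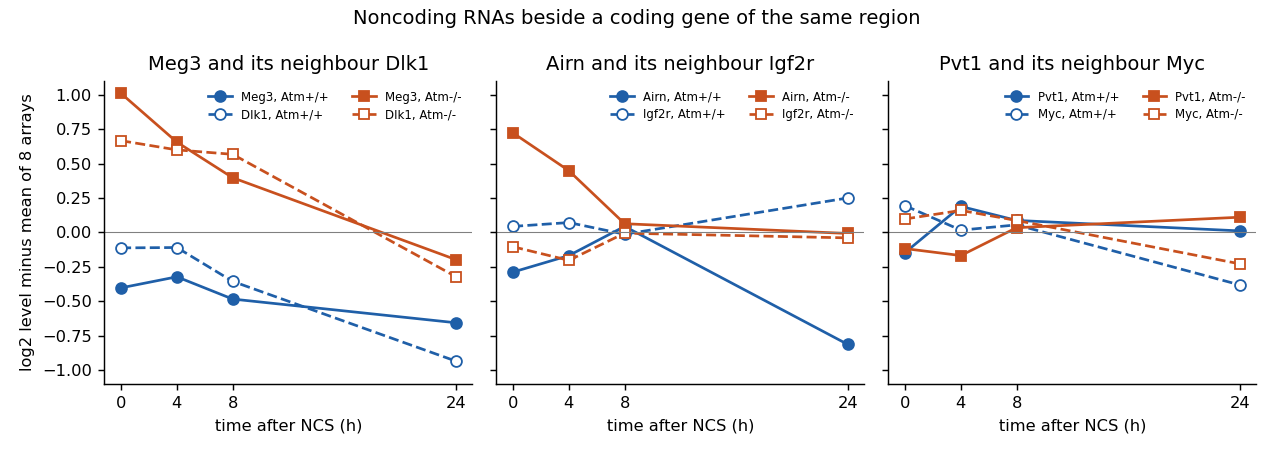
Log2 level minus the mean of the gene's own 8 arrays, against hours after NCS, for Meg3 with Dlk1, Airn with Igf2r and Pvt1 with Myc, 1 array per point. Solid lines are the noncoding RNAs and dashed lines the neighbours. Meg3 and Dlk1 lie higher in Atm-/- (squares) than in Atm+/+ (circles) at each of the 4 times, while Igf2r differs by at most 0.29 between genotypes at any time.

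Igf2r, which Airn overlaps in the opposite sense, read 5.28, 5.30, 5.22 and 5.48 in Atm+/+ and 5.13, 5.03, 5.23 and 5.19 in Atm-/-. Its genotype difference was -0.18 ± 0.08 (limma adjusted p = 0.214) against 0.61 for Airn. At 24 h it differed by 0.14 ± 0.12 (adjusted p = 0.503). Whether the labelling kept the strand of the RNA is not given in the sources used here, so signal from Airn and from Igf2r precursor RNA cannot be told apart. The other 5 genes listed for the region were above background on at most 1 array.

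Myc, which has no protein-coding gene between it and Pvt1, read 2.69, 2.51, 2.55 and 2.11 in Atm+/+ and 2.59, 2.65, 2.58 and 2.26 in Atm-/-. Its genotype difference was 0.06 ± 0.08 (limma adjusted p = 0.643). At 24 h Myc differed by -0.45 ± 0.11 (adjusted p = 0.0897), beside 0.19 for Pvt1. Adcy8, an adenylate cyclase gene with 6 protein-coding genes between it and Pvt1, was higher in Atm-/- by 1.37 ± 0.18 (adjusted p = 0.0112). It was dim, at -6.07 to -4.75 in Atm+/+ and -4.27 to -3.67 in Atm-/-. It was above background on 3 Atm+/+ arrays and 4 Atm-/- arrays, so the size of the difference is uncertain.

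The counts of called genes below stand beside 14.7% of all probes for genotype and 2.55% at 24 h. Around Neat1 and Malat1, 0 of 12 tested neighbours were called for genotype by limma, with a median of 0.03, and Ltbp3 came nearest (0.25 ± 0.07, adjusted p = 0.0706). At 24 h Pola2, a subunit of DNA polymerase alpha, fell by 0.63 on the log2 scale (adjusted p = 0.0485), 1 of 12. Around Rmrp, 1 of 10 was called for genotype, the tropomyosin gene Tpm2 (0.62 ± 0.11, adjusted p = 0.0243), and the median was 0.18. Ccdc107, which lies next to Rmrp, was 0.35 ± 0.08 higher and did not pass (adjusted p = 0.0538). At 24 h Arhgef39 fell by 0.73 on the log2 scale (adjusted p = 0.0464), 1 of 10.

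Genes for proteins that work with these RNAs were compared as groups. The counts and differences below are of their transcripts, and protein was not measured. Of 22 paraspeckle proteins, limma called 1 for genotype, a smaller share than the 14.7% of all probes. It was Cpsf6, a cleavage and polyadenylation factor (-0.44, adjusted p = 0.0495), and the median was -0.05. At 24 h 1 of 21 was called, Rbm14, which fell by 0.96 on the log2 scale (adjusted p = 0.0456), with a median of -0.29. The 1 probe of Neat1 was nearly level at that time, and which Neat1 transcripts it detects was not checked. The paraspeckle protein Sfpq (-0.60, adjusted p = 0.0576) did not pass.

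Of 21 nuclear speckle proteins, 1 was called for genotype by limma, the splicing factor Srsf2 (-0.36, adjusted p = 0.0417), and the median was -0.04. At 24 h 3 of 19 were called, all lower, beside 1.48% of all probes lower and 2.55% in either direction. They were the splicing factors Srsf2 (-0.76, adjusted p = 0.0485), Srsf3 (-0.66, adjusted p = 0.0485) and Srsf6 (-0.63, adjusted p = 0.0498). Markers of macrophages, epithelium, endothelium and muscle were called at the same time, and their part in this was not tested. The median of the group at 24 h was -0.41, beside -0.07 over all probes and -0.51 for Malat1.

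Among 13 subunits and partners of RNase P and RNase MRP, 1 was called for genotype by limma. It was Rpph1, the RNA subunit of RNase P, which read 0.24, 0.48, 0.52 and 0.54 in Atm+/+ and -0.14, -0.12, -0.01 and 0.10 in Atm-/-. Its difference of -0.49 ± 0.07 (adjusted p = 0.0166) had the opposite sign to that of Rmrp. Every Atm-/- array of Rpph1 lay below every Atm+/+ array, a separation that 8.3% of 21558 probes showed in this direction. The protein subunits did not pass, and the median of the list was 0.05. At 24 h 1 of 13 was called, Pop1, a protein subunit of both enzymes, which fell by 0.68 on the log2 scale (adjusted p = 0.0499), while Rpph1 read 0.27 ± 0.10 (adjusted p = 0.191).

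Of 11 regulators of imprinting, such as Dnmt1, Ctcf and Trim28, limma called 0 for genotype, with a median of -0.06, and 0 at 24 h, with a median of -0.23. Of 14 tested among other well-known noncoding RNAs, a list that also holds the coding gene Cdkn2b, 2 were called for genotype, Xist and Hoxa11os (0.31 ± 0.07, adjusted p = 0.0436), both higher, a share close to the 14.7% of all probes, and 0 at 24 h. The imprinted antisense RNA Kcnq1ot1 did not pass (3.23 ± 1.06, adjusted p = 0.109). It was above background on all 4 Atm-/- arrays, at -2.66 to -1.97, and on 2 of the 4 Atm+/+ arrays, which read -7.83, -5.27, -1.67 and -7.51.

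The genes whose pattern over the 8 arrays was closest to each RNA were named by the smallest root mean square difference of levels centred on their own mean, among 13449 probes. For Meg3 they were Mgst3 (0.11 log2) and Serpinb9b (0.15), beside a root mean square of 0.57 for Meg3 about its own mean. For Rmrp they were Kit (0.083) and Strip2 (0.090), beside 0.39. For Airn they were Gclc (0.089) and Hnrnpl (0.12), beside 0.43. For Malat1 they were Phf21b (0.057) and Rpl7a (0.061), beside 0.21. For Neat1 (Rab5a and Uba3, 0.052 and 0.053) and Pvt1 (Fbxo3 and Stxbp3, 0.050 and 0.058) the nearest patterns are those of nearly level genes, since the RNAs themselves varied by only 0.097 and 0.12. These are descriptions over 8 arrays that share slide and time.

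The genotype difference of the 3 RNAs that were higher in Atm-/- in all 4 pairs with an unadjusted p under 0.05 (31.9% of all probes had one) is plotted under every setting tried.

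**Figure D4:**
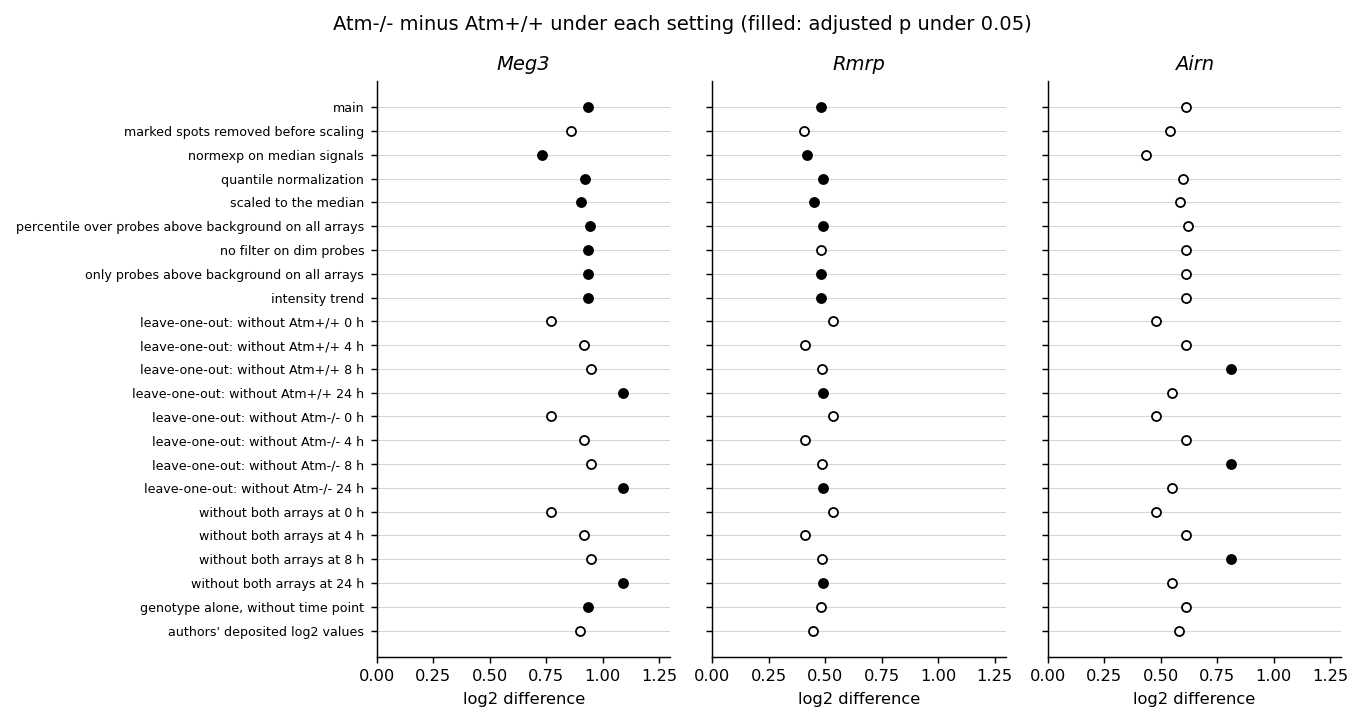
Log2 difference Atm-/- minus Atm+/+ of Meg3, Rmrp and Airn under the main setting and each alternative, with filled points where the adjusted p was under 0.05. All points lie above 0, from 0.73 to 1.09 for Meg3, from 0.41 to 0.53 for Rmrp and from 0.44 to 0.81 for Airn. They were filled under 11, 9 and 3 of the 22 alternatives. Leaving out either array of a time point or both gives the same fit. The 3 filled points of Airn are thus a single fit, without the 8 h arrays.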

How the data were processed

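RNA was labelled with Cy3 by random priming along the transcript after removal of ribosomal RNA, per the labels' protocols, and hybridised to one-colour Agilent arrays, 1 per genotype and time point. Agilent's Feature Extraction 10.5.1.1, per the file headers, gave each spot a processed intensity with background subtracted, an intensity error, and median pixel and local background intensities. The arrays follow mm9. The authors also deposited a log2 table of 7633 noncoding probes, equal to log2 of the processed intensity minus a constant of 7.21 to 7.47 per array (medians 0.67 to 0.76, to within 0.0051), and a table of the same intensity (medians 239.8 to 294.4).

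Here, control and negative spots were left out, log2 spots were averaged per probe, the 75th percentile of 37246 probes was subtracted, and probes whose spots were all marked as outliers on an array were set to missing there (54, 44, 195 and 1545 spots on the Atm+/+ arrays in time order, 96 to 203 on the Atm-/- arrays). The 23299 probes well above background on at least 2 of 8 arrays were tested with limma 3.58.1 in R 4.3.3, two-sided, adjusted by Benjamini-Hochberg over all of them and called under 0.05. Between 57.3% and 61.4% of spots were well above background. The number of arrays limits the precision. Time point and genotype were terms, with genotype by treatment added for the difference of response, and responses within a genotype came from 4 groups. Of 22838 probes named by a RefSeq transcript, 22216 matched a symbol in a GRCm38.p6 table.

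Members, lists and named genes were chosen with earlier results of these data known. Named were the 6 members, list genes that passed or lie next to a member, and the 2 symbols most like each member among probes above background on all 8 arrays. A few genes that passed no test (Ltbp3, Sfpq and Kcnq1ot1) were named after their values were seen. Alternatives changed spots, background, scaling, filter, variance trend, model, source and arrays.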

Additional observations from a re-analysis of the deposited data

How the results depend on the processing

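Limits: each genotype and time has 1 array, so no value has a replicate of its own, and with time as a term leaving out 1 array of a pair gives the same genotype difference as leaving out both. The labels give no replicate numbers. The genotype fit pairs the 2 arrays of a time point through the time term, and with genotype alone Meg3 kept its call (0.93, adjusted p = 0.0418) and Rmrp lost it (0.48, adjusted p = 0.216).

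Over 23 alternative settings, 924 values of the 6 RNAs were recomputed. The sign was opposite in 28, a call was lost in 24 and gained in 6. Of 154 counts of called RNAs, 15 moved by over 1.5 times; the causes were not tested. The count for genotype, 2, became 0 with marked spots removed before scaling, with the authors' deposited log2 values (fitted over 7633 probes; Meg3 0.90, adjusted p = 0.0652, and Rmrp 0.45, adjusted p = 0.0989), and without both arrays at 0 h or at 4 h. It became 1 with no filter, with genotype as the only term, and without both arrays at 8 h, and it ran from 0 to 2 over the arrays left out singly (0 without either 0 h or either 4 h array, 1 without either 8 h array). The count at 24 h, 0, became 1 with only probes above background on all arrays and 2 with an intensity trend. Counts for the other comparisons were 0 under every setting run.

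The values that turned sign had not passed the test. Where a range is given, it covers the arrays left out singly. For genotype, Pvt1 ran from -0.1272 to 0.0249, the latter without either 4 h array or both. For the response at 4 h, Pvt1 ran from -0.0488 (without the Atm+/+ 4 h array) to 0.3333, Malat1 from -0.203 to 0.0193 (without the Atm-/- 4 h array, and 0.016 without the Atm-/- 0 h array), Meg3 from -0.4564 to 0.1829 and Airn from -0.3419 to 0.1878, both highest without the Atm-/- 0 h array. At 8 h Airn ran from -0.5595 to 0.232 (without the Atm-/- 8 h array, and 0.1011 without the Atm-/- 0 h array). At 24 h Neat1 ran from -0.0277 (without the Atm-/- 24 h array) to 0.0597, and was -0.0017 with normexp. In the difference of response, Neat1 ran from -0.067 to 0.0063 (without the 8 h arrays), and was 0.0063 with normexp, 2e-04 with scaling to the median and 0.01 with the deposited values, and Pvt1 was 0.0026 with normexp. Within Atm+/+, removing marked spots gave 0.0539 for Neat1, 0.0502 for Meg3 and 0.1105 for Airn. Airn there was 0.0115 with scaling to the median and 0.0033 with the deposited values, and ran from -0.203 to 0.2258 (without the Atm+/+ 24 h array or both). Within Atm-/-, Rmrp ran from -0.3939 to 0.0463 (without the Atm-/- 24 h array or both).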
